A study of Arabidopsis thaliana with 6 samples.

Results

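SMR2, SMR6, SMR7, SMR9 and SMR13 are 5 SIAMESE-RELATED genes of Arabidopsis thaliana, described here in root tips of wild-type plants and of the mutant scl28-3, called the mutant below. They were taken by gene ID (AT1G08180, AT5G40460, AT3G27630, AT1G51355 and AT5G59360) and are 5 of the 21125 genes listed in the tables. They were grouped because earlier results from these same libraries had shown low levels that were reduced in scl28-3, so their difference between the genotypes is given as a description and no test of it is used. Each genotype had 3 libraries of total RNA. A library came from about 300 root tips of about 2 mm, cut from 6-day-old plants grown on agar in continuous light at 21 °C. The plants differed by the scl28-3 allele, and the labels name no treatment for either group. The type of lesion in scl28-3 is not given in the labels.

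SIAMESE (SIM), the SIAMESE-RELATED (SMR) proteins and the KIP-RELATED proteins (KRP) are the CDK inhibitors of plants. They bind complexes of cyclin-dependent kinases (CDKs) and cyclins, and high inhibitor activity delays mitosis and favours endoreplication, in which cells copy their DNA without dividing. In the root, cells leave the division zone through such a switch. SCL28 encodes a GRAS-family transcription factor that is expressed in dividing cells, and published work on this factor has placed SMR genes among its targets. Bulk tissue cannot tell fewer cells that express a gene from less RNA per cell.

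Wild-type libraries held 10399899 to 11572901 reads, and those of the mutant held 13996534 to 16780424 and were on average 1.35 times deeper. Levels are in CPM (reads of a gene scaled to a common library total), and a count of 3 reads stood for 0.179 to 0.288 CPM. The wild-type libraries held SCL28 at 44.5, 42.59 and 42.38 CPM and the mutant ones at 17.72, 14.92 and 13.65 CPM, a log2 difference of -1.48 ± 0.12 (SE) with a limma adjusted p = 0.0022. Of 17879 genes tested with limma, 13 were called lower in scl28-3 at an adjusted p under 0.05, and 0 were called higher by limma or by edgeR's quasi-likelihood test, while 394 (2.2%) were higher and 387 (2.16%) were lower by limma's unadjusted p under 0.05. Markers of the root meristem (PLT1, PLT2, WOX5, SHR and SCR) were detected in every library, at a summed 124 to 162 CPM in wild type and 140 to 150 CPM in the mutant. The 7 markers of the endodermis with its Casparian strip summed to 122, 236 and 315 CPM in wild type and to 246, 249 and 374 CPM in the mutant, so wild-type library 1 stood apart. All 7 had a higher mean in the mutant and limma and edgeR both called 0 (1 had an unadjusted p under 0.05). The 5 root hair markers summed to 237 to 289 CPM in wild type and 286 to 340 CPM in the mutant, with 5 of 5 higher in the mutant and 0 called by either tool, and the part of endodermis and root hair markers in the results was not tested. The leaf markers RBCS1A and LHCB2.1 summed to at most 8.88 CPM, and LHCB2.1 was at 0 in 2 libraries.

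Together the 5 SMR genes were at 25.0% of their wild-type level in scl28-3. Their summed level was 7.16, 7.4 and 7.37 CPM in wild type and 1.85, 1.96 and 1.68 CPM in the mutant. The means were 7.31 ± 0.131 and 1.83 ± 0.141 CPM (SD, n = 3). These sums rest on 83, 77 and 84 reads in wild type and on 26, 28 and 28 reads in the deeper scl28-3 libraries. Counting error on so few reads is larger than the SDs given, so these SDs are not read as precision. SMR2 made up 36.9% of the summed difference of 5.48 CPM, SMR7 22.5%, SMR6 14.7%, SMR13 13.6% and SMR9 12.3%.

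All 5 genes were lower in every scl28-3 library than in any wild-type library, a pattern held by 4.77% of all listed genes and by 7.48% of the 1859 listed genes with a mean in the range of the 5. Since the genes were chosen on this contrast, nothing is read from that count. Of the 5, 4 passed the filter on low counts, and each of these 4 passed through its wild-type libraries alone, with 3 wild-type and 0 scl28-3 libraries at or above the 0.782 CPM the filter asks for. SMR9 reached that level in 1 wild-type library and was not tested. In the fit over all genes SMR2 was among the 13 lower calls, which are 0.0727% of the tested genes, and this is again a description.

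**Figure D1:**
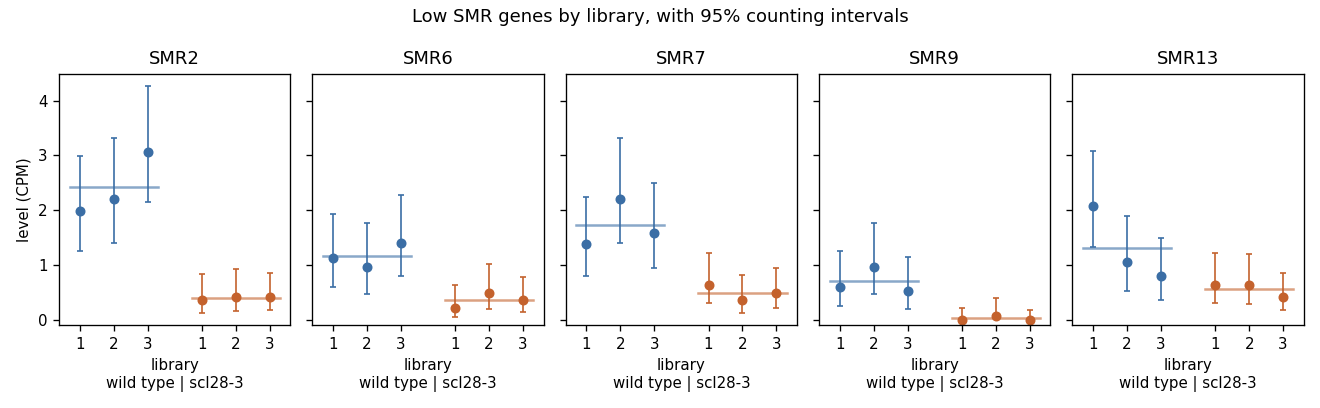
Level in CPM (y axis) of SMR2, SMR6, SMR7, SMR9 and SMR13 in the 3 wild-type libraries (blue) and the 3 scl28-3 libraries (orange). Points are single libraries, bars are 95% Poisson intervals of the read count (up to the 3-read limit where the count is 0; counting error only) and lines are group means. No scl28-3 point reaches a wild-type point, while the intervals of several libraries overlap, for example those of SMR13.

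SMR2 (chromosome 1, 2564361 to 2565318, minus strand, TAIR10.1) showed the largest difference in CPM of the 5. Its level was 1.99, 2.21 and 3.07 CPM in wild type, from 23, 23 and 35 reads. In scl28-3 it was at 0.36, 0.42 and 0.42 CPM, from 5, 6 and 7 reads. The scl28-3 libraries lay far below the lowest wild-type library. Their SD was 0.212 times the SD that read counting alone gives, so their closeness is not read as precision. The group means were 2.42 ± 0.571 and 0.4 ± 0.0346 CPM, a log2 difference of -1.69 ± 0.22 on the log2(CPM + 0.5) scale, where the added 0.5 makes changes of low genes look smaller. By reads pooled over each genotype, 16.5% of the wild-type level was left, with a 95% exact binomial interval of 9.31 to 27.7% for counting error only.

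SMR7, on chromosome 3 from 10230892 to 10231567 (minus strand), is known as a gene induced by DNA damage through the transcription factor SOG1. Its levels were 1.38, 2.21 and 1.58 CPM in wild type, from 16, 23 and 18 reads. In scl28-3 they were 0.64, 0.35 and 0.48 CPM, from 9, 5 and 8 reads. The lowest wild-type library was more than 2 times above the highest scl28-3 library. SMR7 had a log2 difference of -1.17 ± 0.25, and 28.6% of the wild-type level was left by pooled reads (interval 16.7 to 47.6%). SOG1, its known activator, had means of 18.8 ± 0.5 and 19.6 ± 0.233 CPM in wild type and mutant (limma adjusted p = 0.998). Each mutant library was above each wild-type library for SOG1, as for 6.19% of tested genes.

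SMR6 lies on the plus strand of chromosome 5 from 16202142 to 16203358. Wild-type libraries held 1.12, 0.96 and 1.4 CPM, from 13, 10 and 16 reads. The scl28-3 libraries held 3, 7 and 6 reads, at 0.21, 0.49 and 0.36 CPM. The wild-type libraries were all higher, with the smallest gap between wild-type library 2 and scl28-3 library 2. The log2 difference was -0.97 ± 0.25, and 30.4% of the wild-type level was left by pooled reads (interval 15.9 to 55.7%).

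SMR9, on the plus strand of chromosome 1 from 19041397 to 19042414, was close to the detection limit. Its wild-type values were 0.6, 0.96 and 0.53 CPM, from 7, 10 and 6 reads. In scl28-3 it had 0, 1 and 0 reads, or 0, 0.07 and 0 CPM. The limit that a count of 0 allows was 0.214 CPM in mutant library 1 and 0.179 CPM in library 3, below the lowest wild-type value. The log2 difference was -1.19 ± 0.19 in the fit without the filter. Pooled reads, 23 against 1, gave a level of 3.23% of wild type with an interval of 0.0783 to 19.9%.

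SMR13 differed from the other 4 in how its wild-type libraries were spread. This gene, at 23945332 to 23946430 of chromosome 5 (minus strand), was at 2.07, 1.06 and 0.79 CPM in wild type, from 24, 11 and 9 reads. In scl28-3 it was at 0.64, 0.63 and 0.42 CPM, from 9, 9 and 7 reads. Wild-type library 1 was the high one, and wild-type library 3 came near the scl28-3 libraries. The log2 difference of -0.72 ± 0.30 became -0.44 without wild-type library 1, and 42.1% of the wild-type level was left by pooled reads (interval 24.7 to 70.4%). The SD of its wild-type libraries was 1.97 times the SD that read counting alone gives, against 0.69 to 1.22 times for SMR2, SMR6, SMR7 and SMR9.

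The wild-type libraries did not share one order over the 5 genes. SMR2 and SMR6 were highest in wild-type library 3, SMR7 and SMR9 in library 2, and SMR13 in library 1. Their sum, as given above, varied less across the 3 wild-type libraries than read counting alone gives, so nothing is read from its evenness.

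The abundant inhibitor genes were set against these low ones. SIM, which keeps trichomes from dividing, SMR1, which is needed for giant cells of the sepal, SMR3, KRP2 and KRP4 were the 5 others with a mean of at least 10 CPM. They summed to 102, 136 and 149 CPM in wild type and to 118, 130 and 138.5 CPM in the mutant. The genotypes overlapped. An exact permutation test of 3 against 3 libraries cannot go below p = 0.1, so the one run on these sums is not used here. For each read of the 5 low genes there were 14.2, 18.4 and 20.2 reads of the abundant genes in the wild-type libraries. In scl28-3 there were 63.3, 66.2 and 83.0. The mean ratio was 17.6 ± 3.09 in wild type and 70.8 ± 10.6 in the mutant, at abundant sums of 129 ± 24.5 and 129 ± 10.5 CPM.

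**Figure D2:**
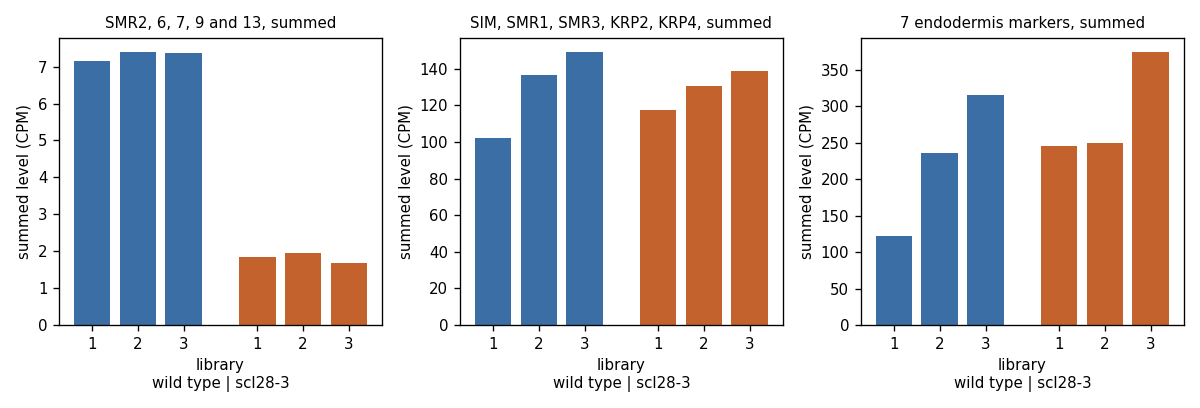
Summed level in CPM (y axis, each panel with its own scale from 0) by library for SMR2, SMR6, SMR7, SMR9 and SMR13 (left), the 5 abundant inhibitor genes (middle) and 7 endodermis markers (right), wild type in blue and scl28-3 in orange. The left bars fall from 7.16 to 7.4 CPM to 1.68 to 1.96 CPM, while the middle and right bars overlap between genotypes and are lowest in wild-type library 1.

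As a share of all reads from the 21 SIM, SMR and KRP genes, the 5 low genes were a small part in both genotypes. Wild-type shares were 4.69, 3.90 and 3.55%, and those of the mutant were 1.14, 1.11 and 0.918%. The 95% exact binomial intervals ran from 2.84 to 5.79% over the wild-type libraries and from 0.611 to 1.66% over scl28-3. Means were 4.05 ± 0.586 and 1.06 ± 0.119% (SD, n = 3). Per kb of exon, which allows levels of different genes to be compared, the share was 4.09 ± 0.592% in wild type and 1.07 ± 0.139% in scl28-3. All 21 genes together were at 183 ± 28 and 174 ± 9.4 CPM, so the loss of 5.48 CPM was smaller than the spread of that total over the wild-type libraries.

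Per kb of exon, SMR7 and SMR2 were the higher 2 of the 5 in wild type, at 2.55 ± 0.641 and 2.53 ± 0.596 CPM per kb, with overlapping libraries. SMR13 followed, below both in every library, at 1.19 ± 0.614, SMR6 at 0.953 ± 0.183 and SMR9 at 0.684 ± 0.227 CPM per kb, and the libraries of neighbours among these 3 overlapped. In scl28-3 the order was SMR7 (0.725 ± 0.215 CPM per kb), SMR13 (0.513 ± 0.113), SMR2 (0.418 ± 0.0362), SMR6 (0.29 ± 0.115) and SMR9 (0.0229 ± 0.0397). SMR2 thus moved from level with SMR7 to below SMR13, though neighbours among the first 4 had overlapping libraries. SIM stood at 61.3 ± 13 and 60.3 ± 5.98 CPM per kb in wild type and scl28-3, which was 7.72 ± 1.37 times the sum of the 5 low genes per kb in wild type and 30.9 ± 5.13 times in scl28-3.

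**Figure D3:**
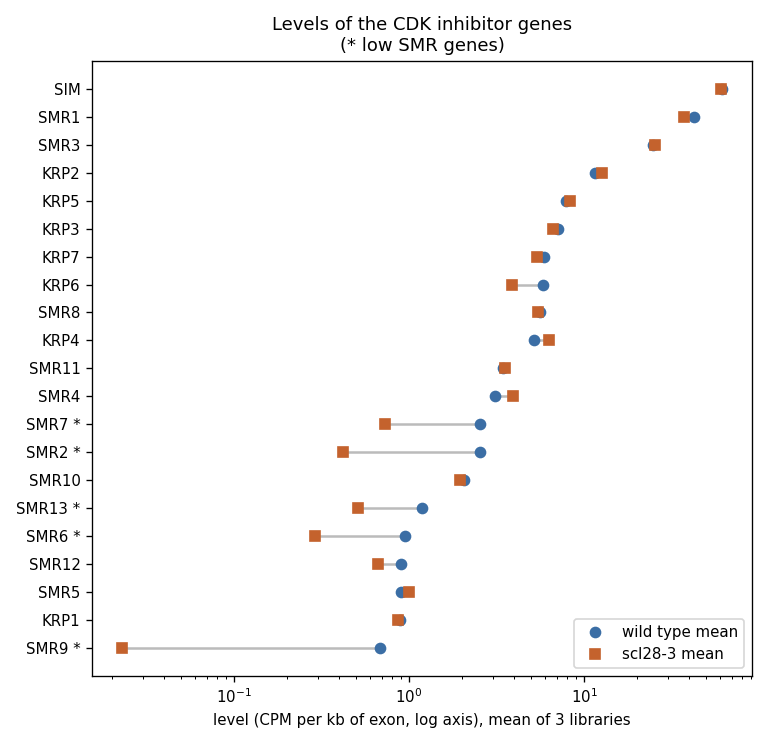
Mean level of 3 libraries in CPM per kb of exon (x axis, log scale) of 21 CDK inhibitor genes, ordered by the wild-type level, with wild type as blue circles and scl28-3 as orange squares. The 5 starred low SMR genes show the longest lines between the genotypes, and SMR10, SMR12, SMR5 and KRP1 sit at like wild-type levels per kb with short ones. SMR5 rests on 2 to 3 reads in each wild-type library, where a drop could hardly be seen.

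Other inhibitor genes at like low levels overlapped between the genotypes. For the SMR genes among them this was in part set by the choice of the 5. SMR10, at 1.95 ± 0.402 and 1.85 ± 0.12 CPM, and KRP1, at 1.05 ± 0.355 and 1.01 ± 0.331 CPM, lay in the wild-type range of the 5 genes. SMR5, a stress-induced relative of SMR7, was at 0.17, 0.29 and 0.26 CPM in wild-type libraries and at 0.29, 0.21 and 0.3 CPM in the mutant. Its wild-type values rest on 2, 3 and 3 reads, below the level of the 5 genes, where a drop could hardly be seen. SMR12 was at 0.26, 0.67 and 0.44 against 0.36, 0.35 and 0.3 CPM. Among all 1859 listed genes with a mean between the lowest and highest of the 5, 4.84% had a scl28-3 mean at or under 50% of wild type (3.02% of all listed genes). All 5 genes did, but they were chosen on this contrast, so nothing is read from the comparison.

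Of the 9 other SIM and SMR genes, 7 were tested, 4 were lower and 3 higher, and limma and edgeR both called 0, and 0 had an unadjusted p under 0.05. Their median log2 difference was -0.02, beside 0.01 over all tested genes, and none of the 9 was free of overlap in the lower direction. These 9 are the genes left once the 5 reduced ones were grouped from the same libraries. The lack of lower genes among them in part restates that choice and is a description. SIM was at 48.5 ± 10.3 and 47.8 ± 4.74 CPM, with a log2 difference of -0.02 ± 0.15. SMR1 (-0.17 ± 0.19), SMR3 (0.05 ± 0.17), SMR8 (-0.07 ± 0.14), SMR10 (-0.06 ± 0.20) and SMR11 (0.03 ± 0.20) had log2 differences within 1 SE of 0. SMR1 was at -0.41 without wild-type library 1. SMR4, known for slowing divisions in the stomatal lineage, had 0.30 ± 0.20, which ran from 0.14 to 0.46 over the fits on 5 libraries. The directions of SIM, SMR3, SMR10 and SMR11 turned in some fits that left out a library.

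Of the 7 KRP genes, 4 were lower and 3 higher, and limma and edgeR both called 0, with a median log2 difference of -0.05 and 1 at an unadjusted p under 0.05. That gene, KRP6, was at 7.43, 8.27 and 10.7 CPM in wild-type libraries and at 6.22, 6.19 and 5.18 CPM in the mutant (log2 difference -0.55 ± 0.16, limma adjusted p = 0.952). It was the 1 KRP gene with every scl28-3 library below every wild-type library, a pattern of 4.22% of tested genes. KRP4 had a log2 difference of 0.28 ± 0.13 with overlapping genotypes. KRP1 (-0.05 ± 0.27), KRP2 (0.10 ± 0.11), KRP3 (-0.10 ± 0.15), KRP5 (0.05 ± 0.13) and KRP7 (-0.12 ± 0.18) lay nearer 0, and KRP1, KRP3 and KRP5 turned direction in some fits that left out a library.

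**Figure D4:**
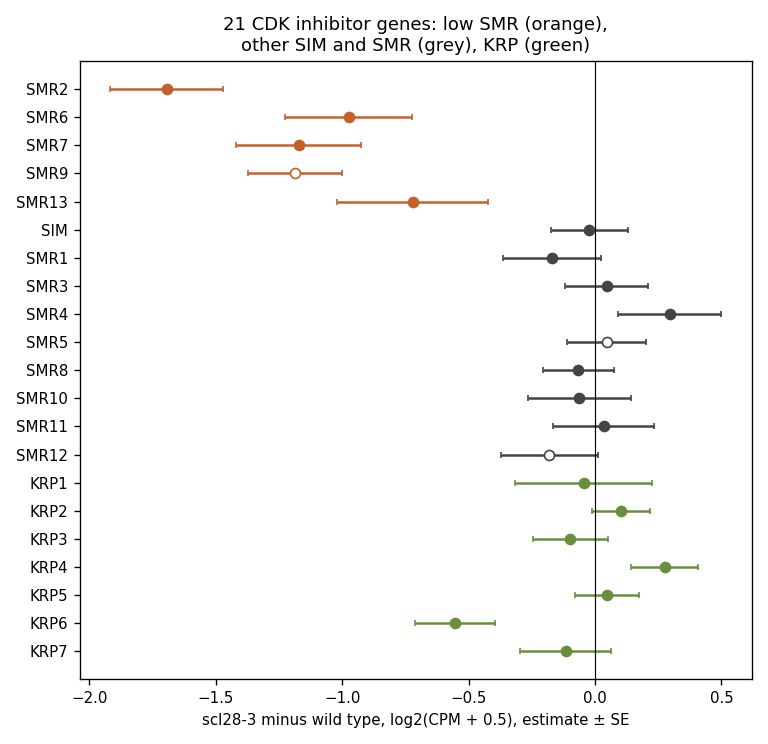
Difference between scl28-3 and wild type on the log2(CPM + 0.5) scale (x axis, limma estimate ± SE, n = 3 libraries each) for 21 CDK inhibitor genes; open circles are genes below the filter on low counts. The 5 low SMR genes lie between -1.69 and -0.72, and of the other 16 the lowest is KRP6 at -0.55.

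The listed CDK and D-type cyclin genes were called in neither direction. Of 5 CDK genes, 3 were lower and 2 higher, with 0 at an unadjusted p under 0.05, and CDKA;1, the main CDK, was at 66.8 ± 1.59 and 67.2 ± 5.02 CPM. Of 9 tested D-type cyclin genes, partners of CDKA;1, 7 were lower and 2 higher, with a median log2 difference of -0.20 beside 0.01 over all tested genes. At an unadjusted p under 0.05, 2 of the 9 were lower, beside 2.16% of all tested genes, and 3 of the 9 were lower without overlap, beside 4.22%. Limma and edgeR called 0 of these 14 CDK and cyclin genes. CYCD3;2, the cyclin with the highest mean over all 6 libraries, was at 52.7 ± 2.24 and 48.9 ± 1.33 CPM, without overlap. CYCD4;2 and CYCD5;1, both with an unadjusted p under 0.05, were named after their values were seen. CYCD4;2 was at 3.63, 3.94 and 4.04 CPM in the wild-type samples, against 3.07, 2.6 and 3.16 CPM in those of the mutant (limma adjusted p = 0.994). CYCD5;1 was at 18.32, 15.19 and 15.09 CPM in wild-type libraries and at 13.15, 10.98 and 11.5 CPM in the mutant (limma adjusted p = 0.952).

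Among 9 regulators of this network, SCL28 was the 1 called gene. MYB3R1, which controls genes of the G2 and M phases, was at 58.6 ± 1.35 and 63.1 ± 1.06 CPM. AHL2, an AT-hook DNA-binding protein of a group described as partners of SCL28, was named after its values were seen. Its wild-type levels were 4.67, 4.23 and 5.26 CPM, against 2.79, 1.9 and 2.03 CPM in the mutant. AHL2 was thus lower without overlap, as were 4.22% of tested genes. The log2 difference was -0.96 ± 0.18 with a limma adjusted p = 0.302. AHL1, AHL3 and AHL4, also listed, had overlapping genotypes. Their log2 differences were 0.16 ± 0.16, -0.01 ± 0.15 and 0.09 ± 0.12. Of the 3 CCS52 genes, which activate the anaphase-promoting complex, limma and edgeR both called 0. CCS52A2, named after its values were seen, had an unadjusted limma p of 0.0498 at 6.65 ± 0.633 and 8.4 ± 0.563 CPM. CCS52B, the highest of them, was at 60.5 ± 5.12 and 55.4 ± 3.14 CPM.

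The genes whose pattern over the 6 libraries was most like the summed level of the 5 SMR genes were found by Pearson's r on the log2 scale among 17485 tested genes with a mean of at least 1 CPM. They were AT3G28510, annotated as a P-loop nucleoside triphosphate hydrolase (r = 0.996), the retroelement-derived SADHU3-2 (0.991) and SCL28 itself (0.991). AT5G17190, a B-cell receptor-associated-like protein, and AT5G17760, another P-loop hydrolase, followed (both 0.990). The 6 points form 1 cluster per genotype, so r is given as a description, and 56 genes had r over 0.95. The list mixed large and small differences, since AT5G17190 was at 130 ± 2.93 and 106 ± 0.287 CPM and SADHU3-2 at 11.3 ± 0.744 and 0.813 ± 0.272 CPM.

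In gene structure the 5 were alike. Each has 1 transcript with 1 exon in the annotation, of 676 (SMR7) to 1217 (SMR6) bases, and a coding part of 99 (SMR7) to 154 (SMR13) codons without the stop. Such short, intronless genes are the rule among the other SIM and SMR genes too, where SMR12 with 2 exons was the exception, while the KRP genes have 3 or 4 exons. None of the 5 overlaps another annotated gene, whereas SIM, SMR1, SMR5 and KRP4 each overlap 1 on the other strand, where reads cannot be assigned if counting ignored the strand. For SMR5 the overlap covers all 266 bases of its exon. No match of their exons elsewhere in the genome spanned at least 50 bases with 95% identity or more over its whole length. Stretches inside longer matches were not searched separately. The exon of SMR9 had 585 more distant matches, the longest of 276 bases at 80.1% identity.

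The 250 bases before the annotated start of each gene were searched on both strands for words of known cell cycle and DNA damage factors. The promoters of SMR2, SMR6 and SMR7 are printed because they hold such words, which are in capitals, and they are read 5′ to 3′ along the gene from RefSeq's TAIR10.1.
SMR2, chr1:2565319-2565568, minus strand: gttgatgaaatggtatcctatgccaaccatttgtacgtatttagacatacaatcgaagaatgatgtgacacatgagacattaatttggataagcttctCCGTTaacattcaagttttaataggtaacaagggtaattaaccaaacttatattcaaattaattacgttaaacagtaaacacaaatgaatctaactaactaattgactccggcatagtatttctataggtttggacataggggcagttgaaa
SMR6, chr5:16201892-16202141, plus strand: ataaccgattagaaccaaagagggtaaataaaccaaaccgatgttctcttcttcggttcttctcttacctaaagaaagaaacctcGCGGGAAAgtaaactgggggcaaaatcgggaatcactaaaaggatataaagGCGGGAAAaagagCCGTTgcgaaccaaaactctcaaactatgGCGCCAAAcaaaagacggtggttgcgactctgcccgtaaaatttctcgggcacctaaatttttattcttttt
SMR7, chr3:10231568-10231817, minus strand: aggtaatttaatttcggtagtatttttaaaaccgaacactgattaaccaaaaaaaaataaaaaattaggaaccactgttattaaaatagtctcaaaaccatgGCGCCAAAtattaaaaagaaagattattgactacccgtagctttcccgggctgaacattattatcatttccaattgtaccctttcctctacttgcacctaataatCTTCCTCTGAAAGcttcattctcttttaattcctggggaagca
The core of the mitosis-specific activator (MSA) element that MYB3R factors bind, AACGG, was in the promoters of SMR2 and SMR6, each time as its reverse complement CCGTT, 148 to 152 and 97 to 101 bases before the start. It was in 20.6% of the promoters of 27443 coding genes. Of the 16 other inhibitor genes, 7 held it. E2F words (TTTCCCGC, TTTGGCGC, TTTGCCGC or TTTCGCGC) were in the promoters of SMR6 and SMR7, and in 0 of the 16 other inhibitor genes and 1.41% of all promoters. SMR6 held 3 of them, all on the reverse strand, a number reached by 3 of the 27443 promoters. SMR7 also held the palindromic SOG1 word, in which CTT and AAG stand 7 bases apart, 31 to 43 bases before its start, as did 9.71% of all promoters and 3 of the 16 other inhibitor genes.

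No word of these 3 kinds was found in the windows of SMR9 and SMR13, and no kind was shared by all 5 genes. The A and T share of the windows was 67.6% for SMR2, 58% for SMR6, 66.8% for SMR7, 70.4% for SMR9 and 70.8% for SMR13, beside a median of 68.8% over all promoters. The SMR6 window also overlaps the long non-coding RNA gene AT5G06065. A match describes the letters in these windows and is not evidence of binding.

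The size of each difference depended on how low values were handled. Its sign was the same in every setting run. That was largely set beforehand, since the genes were chosen as reduced and did not overlap between genotypes, so nothing is read from it. With count models on the recovered reads SMR2 was at -2.59 (edgeR), -2.62 (DESeq2) and -2.51 (limma-voom), against -1.69 in the limma fit. A pseudocount of 2 CPM gave -0.88. The 5 genes were below 0 in every alternative that gave them a value. SMR2 was among the called genes in 11 of 17 alternatives. With 1 library dropped at a time it was called in 1 of 6 fits, the one without wild-type library 1. SMR2 was chosen on this contrast, so these counts describe the settings and are not support for its difference.

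**Figure D5:**
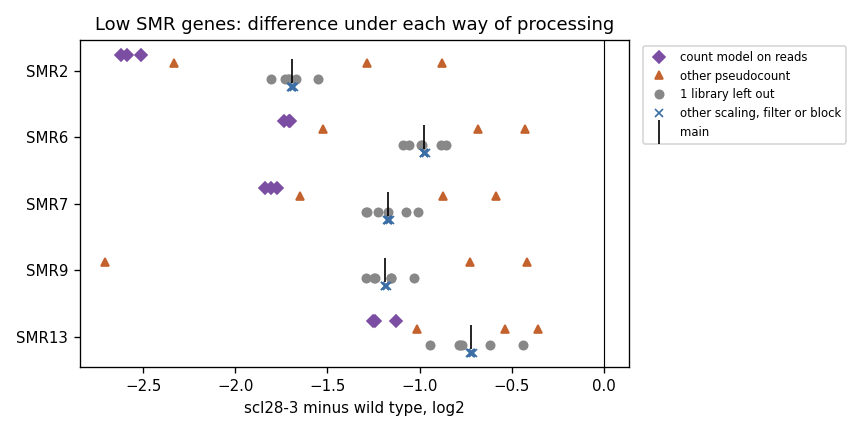
Difference between scl28-3 and wild type in log2 units (x axis) for the 5 low SMR genes under the main limma fit (bar) and its alternatives (symbols by kind of alternative). Every symbol lies below 0, which the choice of these genes largely set beforehand. Count models and a small pseudocount are on the left and pseudocounts of 1 and 2 CPM on the right.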

How the data were processed

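Root-tip RNA from 3 wild-type and 3 scl28-3 samples, given as biological replicates, was analysed. The deposited values are CPM per gene, per the file headers, and carry at most 2 decimals. HISAT2 2.0.0, HTSeq 0.6.1p1, edgeR and TAIR10 are named in the submitters' processing notes. Annotation release and use of the strand are not given in the sources used here.

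Low values were whole multiples of the CPM of 1 read, and dividing by it gave whole reads for 100% of values within 0.1 read. Genes were kept by filterByExpr (minimum count 10), CPM was divided by TMM factors (edgeR 4.0.16), and log2(CPM + 0.5) was tested over 17879 genes with limma 3.58.1 (trend, R 4.3.3), two-sided, with Benjamini-Hochberg adjustment at 0.05. The quasi-likelihood test on the recovered reads called 14 genes, against 13. DESeq2 1.42.0, limma-voom, other scalings, pseudocounts and filters, a replicate block and leaving out each library were alternatives. Intervals are exact Poisson for reads and exact binomial for shares and ratios, and they cover counting error only, as do the 3-read limits. The fit was tested on simulated data.

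The 5 genes, the lists and the rules were chosen with earlier results of these data known. Genes were named as members of the inhibitor lists, as called or highest-level members of the other lists, or as the 5 most alike by r. CYCD4;2, CYCD5;1, AHL1, AHL2, AHL3, AHL4, CCS52A2 and SOG1, all list members, were named outside this rule, after their values were seen. IDs were paired with symbols by a hand-written list, because RefSeq names SMR7 alone among the 5, and SCL28 is AT1G63100. Of the gene IDs, 21020 were in the TAIR10.1 annotation and 105 were not. Structure, promoters and blastn 2.17.0 matches came from that build.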

Additional observations from a re-analysis of the deposited data

How the results depend on the processing

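Count models moved the log2 differences of SMR2, SMR6, SMR7 and SMR13 to -2.59, -1.71, -1.81 and -1.24 (edgeR), -2.62, -1.73, -1.84 and -1.25 (DESeq2) and -2.51, -1.71, -1.77 and -1.13 (limma-voom); SMR9 was below their filter. SMR2, SMR6, SMR7 and SMR9 were at -2.33, -1.52, -1.65 and -2.71 with a pseudocount of 0.1 CPM, at -1.29, -0.68, -0.87 and -0.73 with 1 CPM, and at -0.88, -0.43, -0.58 and -0.41 with 2 CPM, and SMR13 was at -1.01, -0.53 and -0.36 with these. A larger pseudocount shrinks low values by construction. Leaving out a library gave -1.81 to -1.55 for SMR2, -1.09 to -0.85 for SMR6, -1.29 to -1.01 for SMR7, -1.29 to -1.03 for SMR9 and -0.94 to -0.44 for SMR13, where -0.44 came without wild-type library 1. The summed log2 ratio of the 5 genes (-2.02) ran from -2.07 to -1.96, and their share of inhibitor reads from 3.73 to 4.30% in wild type and 1.02 to 1.12% in scl28-3. The count of genes called lower fell from 13 to 5 under the stricter adjusted p of 0.01. It lay between 5 and 18 over the fits on 5 libraries, with 18 where wild-type library 1 was dropped, and the cause was not tested. A replicate block by sample number gave 40 lower and 24 higher calls, and AHL2 joined SCL28, for 2 called regulators (AHL2 adjusted p = 0.039 by limma, and 0.15 to 1 in the other alternatives). No pairing by number is established: the correlations of deviations within a number were 0.44, 0.04 and 0.50, and none between unlike numbers was computed. On the main axis of variation (first principal component, 44.3% of variance) the libraries of both genotypes followed the order of their numbers. Whether the numbers mark a shared batch was not tested. Of 238 values for the 14 other tested inhibitor genes, 0 gained a call and 13 changed sign, each with a library left out. The ranges over those fits were -0.12 to 0.22 for SMR3, -0.10 to 0.20 for SMR11, -0.029 to 0.12 for KRP5, -0.22 to 0.082 for SIM, -0.22 to 0.028 for SMR10, -0.21 to 0.023 for KRP3 and -0.23 to 0.14 for KRP1. Without a change of sign they were -0.41 to -0.037 for SMR1, 0.14 to 0.46 for SMR4 and -0.30 to -0.0035 for KRP7. Each of the 5 low genes rests on at most 35 reads in a library, which limits its precision.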
